A study of Saccharomyces cerevisiae with 12 samples.

Results

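Gene expression in Saccharomyces cerevisiae lacking MMM1 (mmm1Δ) was compared with wild type (WT) in 4 of the 12 libraries of a study of the junction between the endoplasmic reticulum (ER) and mitochondria and of iron control. The 4 libraries, chosen by genotype from the labels, are 2 of WT and 2 of mmm1Δ, all in the BY4741 background, a haploid laboratory strain of mating type a that lacks LEU2, URA3 and MET17 and carries a deletion within HIS3. The mmm1Δ strain carries the deletion of MMM1 and WT no further allele that the labels name, and the labels do not say whether mmm1Δ is 1 clone. All were grown in YPD, a rich glucose medium, and taken in exponential growth at an OD600 of 0.8 to 1. Replicate 1 of both genotypes is in 1 deposited table and replicate 2 in another, so each mmm1Δ library was set against the WT library of its own table (pair 1 and pair 2). Nothing in the labels says that the replicates came from separate cultures, so p-values measure only the spread between these libraries, which may be technical. A further pair of libraries, WT in a medium called clean YPD without or with 100 µM of the iron chelator bathophenanthroline disulfonate (BPS) for 4 hours, is used for values side by side only.

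Mmm1 is an ER membrane protein and a subunit of ERMES, a tether with subunits in both membranes along which phospholipids pass between the ER and mitochondria. Mitochondria also build iron-sulfur clusters, and in budding yeast the transcription activators Aft1 and Aft2 read the supply of those clusters: when it is low they switch on the iron regulon, a set of genes for iron uptake at the cell surface, iron release from the vacuole and iron sparing. Aft1 binds DNA at a short core, CACCC, often within the longer word TGCACCC. The expression unit is FPKM, fragments per kilobase of transcript scaled to the mapped fragments of the library, and a ratio is the log2 of (FPKM + 1) in mmm1Δ over WT of the same pair. The words rose and fell mark genes with a Benjamini-Hochberg adjusted p under 0.05 in limma, a linear model fitted to all genes tested with the pair as a block; the SE given is the moderated SE of that fit.

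The labels held. MMM1 (chromosome XII, 136586 to 137866, build sacCer3) was at 6.48 FPKM in WT replicate 1 and 37.6 in WT replicate 2, and was listed at 0 in both mmm1Δ libraries. Its neighbour upstream on the same strand, the uncharacterised YLL006W-A (136345 to 136521), which ends 64 bases before MMM1, went the other way: it was listed at 0 in both WT libraries and at 12.5 and 80.6 in mmm1Δ, and rose (limma adjusted p 0.00126). It is under 300 nt long. The next genes on either side did not pass the test: LMO1 had ratios of 1.02 and 1.49 and SPO75 of 0.63 and 1.45. Genes particular to mating type a cells were present in all 4 libraries (the receptor gene STE2 at 136 to 658 FPKM), LEU2 was at 0 in all 4, and URA3 and MET17 were at no more than 0.206. Some genes of the opposite mating type were also above 0, such as SAG1 at 7.13 to 22.0 FPKM. Median FPKM over all genes was 12.3 and 15 in pair 1 and 41.5 and 44.3 in pair 2, and 111 to 172 genes were listed at 0 per library. In bulk RNA, fewer cells that use a gene and less RNA per cell cannot be told apart.

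Rises outnumbered falls. Of the 6660 genes in the tables, 6029 were tested, those whose FPKM averaged 5 or more across the 4 libraries. Of these, 165 rose (2.74%) and 61 fell (1.01%). All 165 and all 61 were past 2-fold in both pairs. Without regard to the test, 232 genes were at least 2-fold higher in both pairs (3.85%) and 224 at least 2-fold lower (3.72%). Counted pair by pair, 504 were higher and 806 lower in pair 1, and 514 and 407 in pair 2. The genes that rose were low in WT, with a median of 5.67 FPKM in WT replicate 1 and 14.1 in WT replicate 2 against 38.3 and 86.6 in mmm1Δ. The genes that fell started higher, at medians of 64 and 107 in WT, and ended at 16.7 and 26.3. Of the 165, 117 (70.9%) are at least 300 nt long, alone at their locus and above 0 in every library, against 76.0% of all genes tested, and of the 61 only 23 (37.7%) are.

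**Figure D1:**
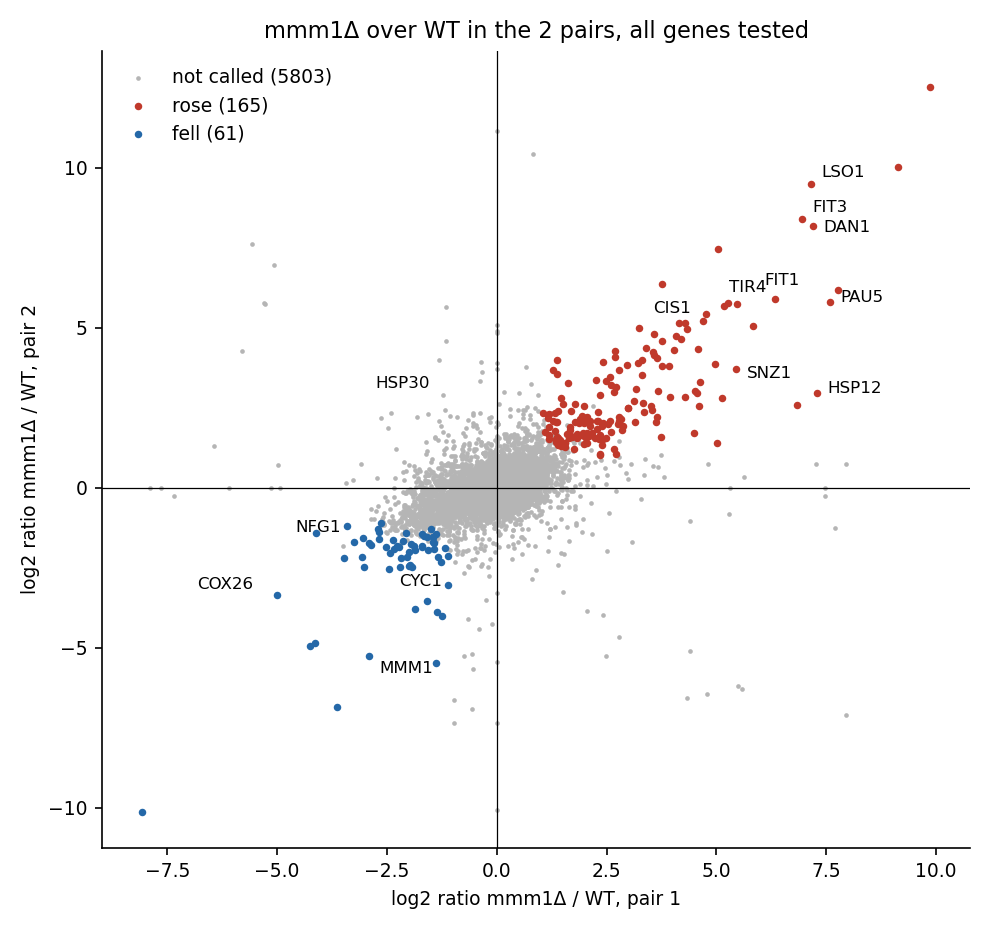
Each point is 1 of the 6029 genes tested, with the log2 ratio of mmm1Δ over WT in pair 1 on the x axis and in pair 2 on the y axis; red points rose and blue points fell. The 165 rises lie in the upper right quadrant and reach further from 0 than most of the 61 falls, the falls lie in the lower left, and genes of opposite sign in the pairs, such as HSP30, were not called.

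The ratios also moved with abundance. In the 1206 most abundant genes the median ratio was -0.79 in pair 1 and -0.30 in pair 2, against 0.26 and 0.11 in the 1206 least abundant, with all genes at 0.10 and -0.03. In 5 groups of 1205 or 1206 genes by abundance, rises numbered 35, 43, 39, 29 and 19 from the lowest to the highest, and falls 13, 7, 14, 9 and 18. When a smooth trend of the ratio with abundance was removed, 79 genes rose (1.31%) and 7 fell (0.116%), and 72 of the 165 rises and 7 of the 61 falls kept their call. When the fit was limited to genes no shorter than 300 nt that share no locus, 362 rose (7.88%) and 176 fell (3.83%) of 4596. In that fit limma estimated the prior degrees of freedom as infinite, so a gene's own spread between the pairs did not enter its test, and the larger share of calls there is read with that limit wherever the fit is named. The 125 rises and 24 falls that could be tested there all kept their call, also when the trend was removed as well (323 or 7.03% rose and 142 or 3.09% fell, with 12.4 prior degrees of freedom). What made the ratios move with abundance was not tested.

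**Figure D2:**
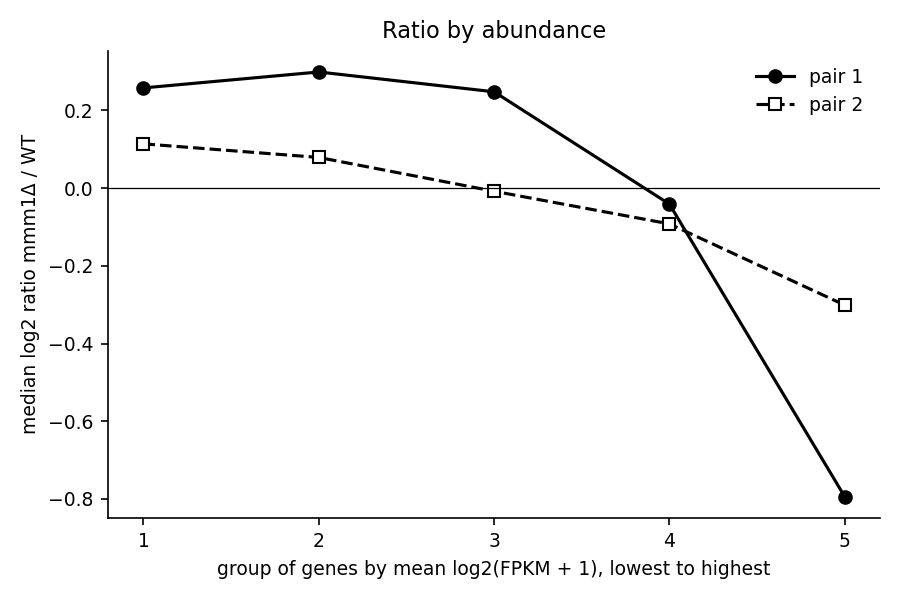
Median log2 ratio of mmm1Δ over WT (y axis) in 5 groups of 1205 or 1206 genes by mean log2(FPKM + 1) (x axis, lowest to highest), for pair 1 (filled circles) and pair 2 (open squares). The medians are 0.26 and 0.11 in the lowest group and -0.79 and -0.30 in the highest.

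Of the gene lists, that of the siderophore genes of the iron regulon had the highest median ratio. All 7 genes for siderophore capture and import rose, with a median ratio of 5.51 against 0.03 over all genes tested. FIT1, FIT2 and FIT3 encode mannoproteins of the cell wall that help to hold iron-loaded siderophores. FIT3 (chromosome XV, 1060441 to 1061055) was at 142 FPKM in WT and 17547 in mmm1Δ in pair 1 and 52.5 and 18121 in pair 2 (mean ratio 7.67, SE 0.54, limma adjusted p 0.000116). FIT2 (chromosome XV, 1059531 to 1059992) was at 256 FPKM in WT and 8427 in mmm1Δ in pair 1 and 74.1 and 13131 in pair 2 (mean ratio 6.24, adjusted p 0.000794). FIT1 (chromosome IV, 1503314 to 1504900) was at 3.86 FPKM in WT and 388 in mmm1Δ in pair 1 and 2.85 and 228 in pair 2 (mean ratio 6.11, adjusted p 2.77e-05). In all 3 the mmm1Δ libraries lay far above both WT libraries. How many of all genes tested show such a gap was not counted.

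The 4 transporters that bring siderophore-bound iron through the plasma membrane rose with them. SIT1 rose from 14.7 to 279.5 FPKM in pair 1 and from 8.35 to 333 in pair 2 (mean ratio 4.66). ARN1 rose from 24.6 to 608 FPKM in pair 1 and from 23.8 to 499 in pair 2 (mean ratio 4.45). ENB1, the transporter of enterobactin, a bacterial siderophore, rose from 37.8 to 381 FPKM in pair 1 and from 51.3 to 594 in pair 2 (mean ratio 3.40). In FPKM the WT libraries of the 3 genes lay close together in the pairs, and so did the mmm1Δ libraries, although median FPKM over all genes was higher in pair 2. ARN2 rose from 5.69 to 255 FPKM in pair 1 and from 13.9 to 806 in pair 2 (mean ratio 5.51), but it shares its locus with another annotated gene, so its reads may not be its own. These 7 rises, FIT genes included, also kept their call when the trend with abundance was removed.

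Reductive iron uptake, in which surface reductases free ferrous iron for the oxidase Fet3 and the permease Ftr1, moved less and less evenly. Of 9 genes tested, 3 rose, with a median ratio of 1.45. The reductase genes FRE1 and FRE3 rose, with mean ratios of 1.78 and 2.10, as did FRE5, a further member of the reductase family, at 1.47. FET3 (chromosome XIII, 388822 to 390732) was at 244 FPKM in WT and 585 in mmm1Δ in pair 1 and 118 and 596 in pair 2, and its mean ratio of 1.80 did not pass (limma adjusted p 0.0659). FTR1 was at 1015 FPKM in WT and 1525 in mmm1Δ in pair 1 and 127 and 633 in pair 2, with ratios of 0.59 and 2.31 (adjusted p 0.192). Both genes were already well expressed in WT replicate 1, where FTR1 was above its level in mmm1Δ replicate 2. Median FPKM over all genes was lower in pair 1 than in pair 2. FRE2 had a mean FPKM under 5 and was not tested, with 0.768 and 2.82 in pair 1 and 3.19 and 12.4 in pair 2. With the trend removed 1 of the 9 was called, and in the fit on longer genes alone at their locus 6 of the 7 tested there.

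Among genes for iron release, sparing and related transport 8 of 14 rose, with a median ratio of 1.75. LSO1, a small ribosome-associated protein induced by low iron, went from near 0 to a high level, 3.53 FPKM in WT and 639 in mmm1Δ in pair 1 and 1.47 and 1787 in pair 2 (mean ratio 8.32, SE 0.52, limma adjusted p 6.4e-05); at 282 nt it is a short gene. TIS11, also called CTH2, encodes a protein that binds mRNAs of iron-using enzymes and speeds their decay, and was at 11.3 FPKM in WT and 147 in mmm1Δ in pair 1 and 7.73 and 243 in pair 2 (mean ratio 4.20, adjusted p 0.000426). FTH1 and FET5 encode the permease and oxidase that export iron from the vacuole, and rose together by 2.15 and 1.88. The biotin permease VHT1 rose by 2.38, the vacuolar zinc transporter COT1 by 1.83, the glutathione transferase ECM4 by 2.04 and the palmitoyl transferase AKR1 by 1.67. The mitochondrial iron carrier MRS4 and the cluster scaffold ISU1 each had a mean ratio of 1.44 without passing (adjusted p 0.0717 and 0.117). Of the 14, 12 were above 0 in both pairs and 1 was below 0 in both. HMX1, the heme oxygenase, had no shared direction in the pairs. It was at 5.74 FPKM in WT and 9.17 in mmm1Δ in pair 1 and 16.1 and 15.5 in pair 2, while BPS took it from 8.86 to 198. With the trend removed 2 of the 14 were called, and in the fit on longer genes alone at their locus 10 of 12.

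AFT1 and AFT2 themselves had mean ratios of 1.02 and 1.01 and did not pass (adjusted p 0.132 and 0.192). No member of the lists for mitochondrial cluster assembly (17), cytosolic cluster assembly (10) or heme synthesis (8) was called, with medians of 0.05, 0.13 and -0.28. In the fit on longer genes alone at their locus, 3 of 12 genes of mitochondrial cluster assembly fell, as did 1 of 7 for heme synthesis and none of 10 for cytosolic assembly. Of the 3 lists, the most extreme members of 1 sign in both pairs were ISU1, above, the monothiol glutaredoxin GRX5 at -1.24, DRE2 at -0.67, CFD1 at 0.39, the ferrochelatase HEM15 at -1.51 and HEM13 at -0.81.

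**Figure D3:**
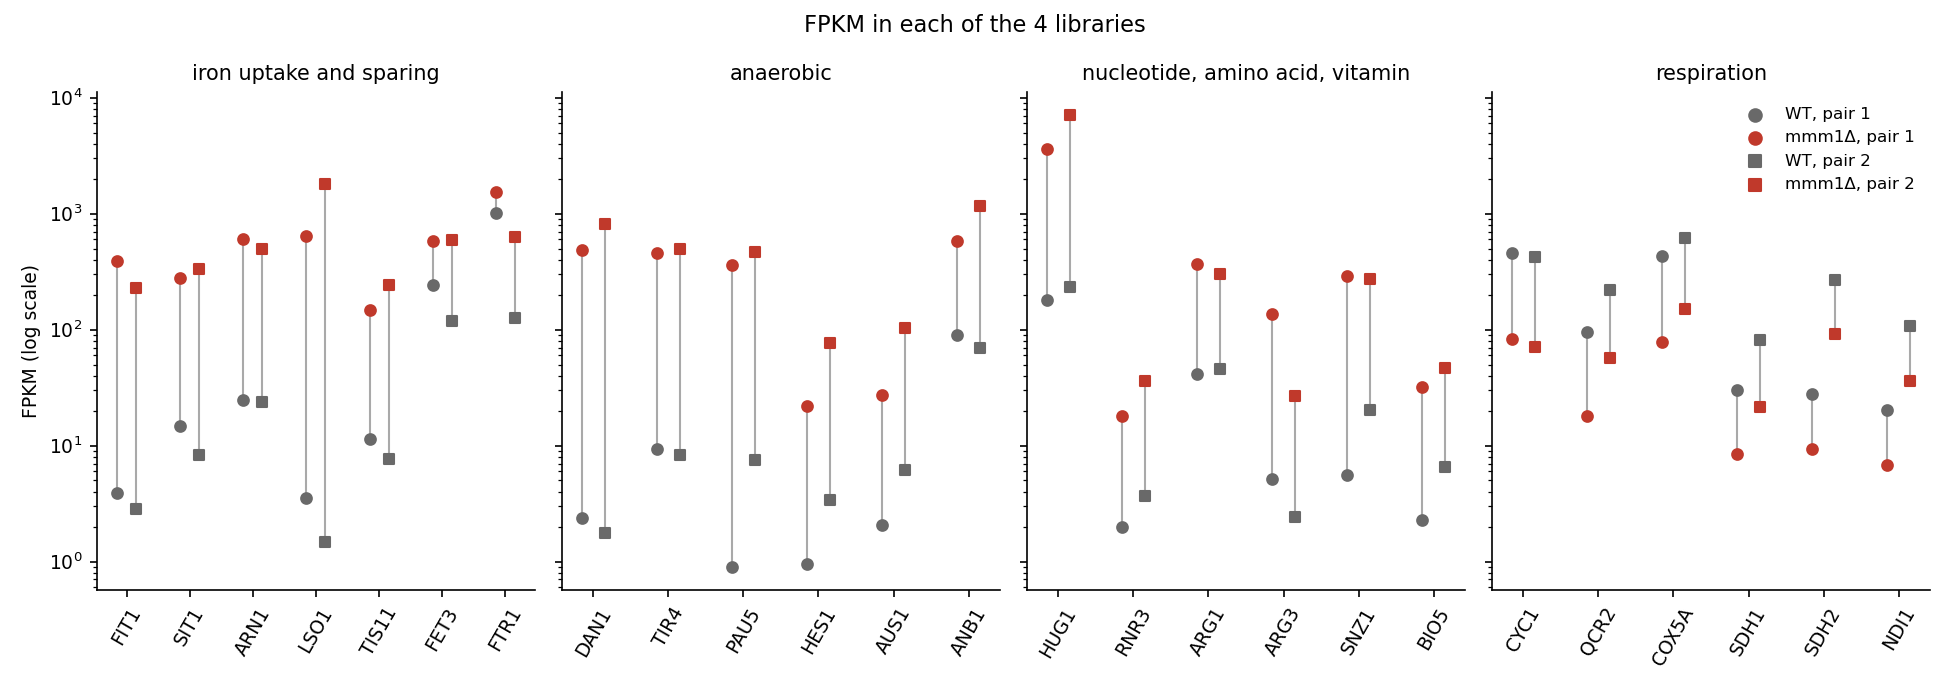
FPKM on a log scale in each of the 4 libraries, with a line joining the 2 libraries of a pair; grey symbols are WT, red are mmm1Δ, circles are pair 1 and squares pair 2. The siderophore and anaerobic genes shown are higher in mmm1Δ in both pairs, FTR1 starts from different WT levels in the pairs, and all 6 respiratory genes are lower in mmm1Δ.

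The sequences upstream of these genes were read for the Aft1 word to see which rises carry it. Windows ran from 250 bases before to 50 after the annotated gene start (NCBI RefSeq annotation of R64, sacCer3), and both strands were searched, where CACCC is also found inside every TGCACCC. The longer word stood in 72 of the 5508 promoters of tested genes (1.31%) and in 12 of the 148 of genes that rose (8.11%), and in 0 of the 40 of genes that fell. Put the other way, 12 of the 72 rose (16.7%, against 2.74% of all genes tested). CACCC stood in 20% of all, 29.7% of risen and 17.5% of fallen promoters. TGCACCC stood in 71.4% of the siderophore list, 55.6% of the reductive list and 21.4% of the release and sparing list. A match is a description of the letters, not proof of a bound site, and no binding was measured.

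Not every iron gene that rose holds the word. ARN1, ARN2, FRE3 and COT1 have neither TGCACCC nor CACCC in the window, and FRE1, FTH1, VHT1, ECM4 and AKR1 have CACCC only. The sites are shown for the iron genes that rose and hold TGCACCC, with 10 bases to each side. They run 5′ to 3′ on the strand of the gene, with the word, or its reverse complement GGGTGCA, in capitals.
FIT1 (chrIV:1505066-1505092): ttctaggaaaGGGTGCAaaaaaatgaa
FIT3 (chrXV:1061223-1061249): ttctaggaaaGGGTGCAaaaaaatggg
FIT2 (chrXV:1059390-1059416): gaatctaactGGGTGCAgtataattag
SIT1 (chrV:27459-27485): acacatttgaGGGTGCAatctggttcg
ENB1 (chrXV:21488-21514): tttaaattatTGCACCCaaatgtgata
ENB1 (chrXV:21432-21458): ggcttacaatTGCACCCctctgtggct
LSO1 (chrX:448887-448913): tcgagaatgtTGCACCCttttttccaa
TIS11 (chrXII:416815-416841): acatgcagttGGGTGCAttgtgccagc
FET5 (chrVI:49001-49027): gtattcagtcTGCACCCtgtttcgcca
FRE5 (chrXV:1061324-1061350): ggaacaaacaGGGTGCAaaaaaaaatc
FIT2 and TIS11 each hold another match at the far edge of the window. The genes FIT2, FIT3 and FRE5 are neighbours on chromosome XV, 448 and 508 bases apart, and each has a match in its window. FIT3 and FRE5 are divergent, and the sites shown for them both lie in the 508 bases between these genes.

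A further 3 genes outside the iron lists rose and carry the same word, and were picked out after their values were seen. VMR1 encodes an ABC transporter of the vacuole membrane, FMP23 a mitochondrial protein of little known function, and ZTA1 a quinone reductase. FMP23 and ZTA1 are divergent neighbours on chromosome II, 321 bases apart, with 1 site between them that is read in opposite orientation from each gene.
VMR1 (chrVIII:32924-32950): gtttcgaaagGGGTGCActtttaaaaa
FMP23 (chrII:331701-331727): tagaaatgaaGGGTGCAacttctaatg
ZTA1 (chrII:331701-331727): cattagaagtTGCACCCttcatttcta
VMR1 was at 1.20 FPKM in WT and 7.86 in mmm1Δ in pair 1 and 5.74 and 29.2 in pair 2 (mean ratio 2.09, limma adjusted p 0.00868). FMP23 was at 5.96 FPKM in WT and 53.1 in mmm1Δ in pair 1 and 13.7 and 209 in pair 2 (mean ratio 3.40, adjusted p 0.000794). ZTA1 was at 7.04 FPKM in WT and 32.5 in mmm1Δ in pair 1 and 37.1 and 98.3 in pair 2 (mean ratio 1.72, adjusted p 0.0243). In each gene both mmm1Δ libraries exceeded the WT library of their pair, by the widest margin in FMP23. With BPS the ratios were 2.43, 2.59 and 0.68, so ZTA1 stayed under 2-fold there.

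Values with the chelator were set beside those of mmm1Δ for the genes called. The BPS pair shares no library with either mmm1Δ pair, has 1 library per group and therefore no test. In it 186 of 5930 genes were at least 2-fold higher (3.14%) and 228 at least 2-fold lower (3.84%). Of the 165 rises 151 were measured there, and 54 were at least 2-fold higher with BPS (35.8% of the 151, and 29.0% of the 186), with 7 at least 2-fold lower and a median BPS ratio of 0.59. Of the 61 falls 56 were measured, and 26 were at least 2-fold lower with BPS (46.4% of the 56, and 11.4% of the 228) and none at least 2-fold higher, with a median of -0.92. Among promoters of the risen genes, CACCC stood in 24 of 49 promoters of rises at least 2-fold higher with BPS (49.0%) and in 18 of 87 of the others measured (20.7%), and TGCACCC in 10 (20.4%) and 2 (2.30%).

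**Figure D4:**
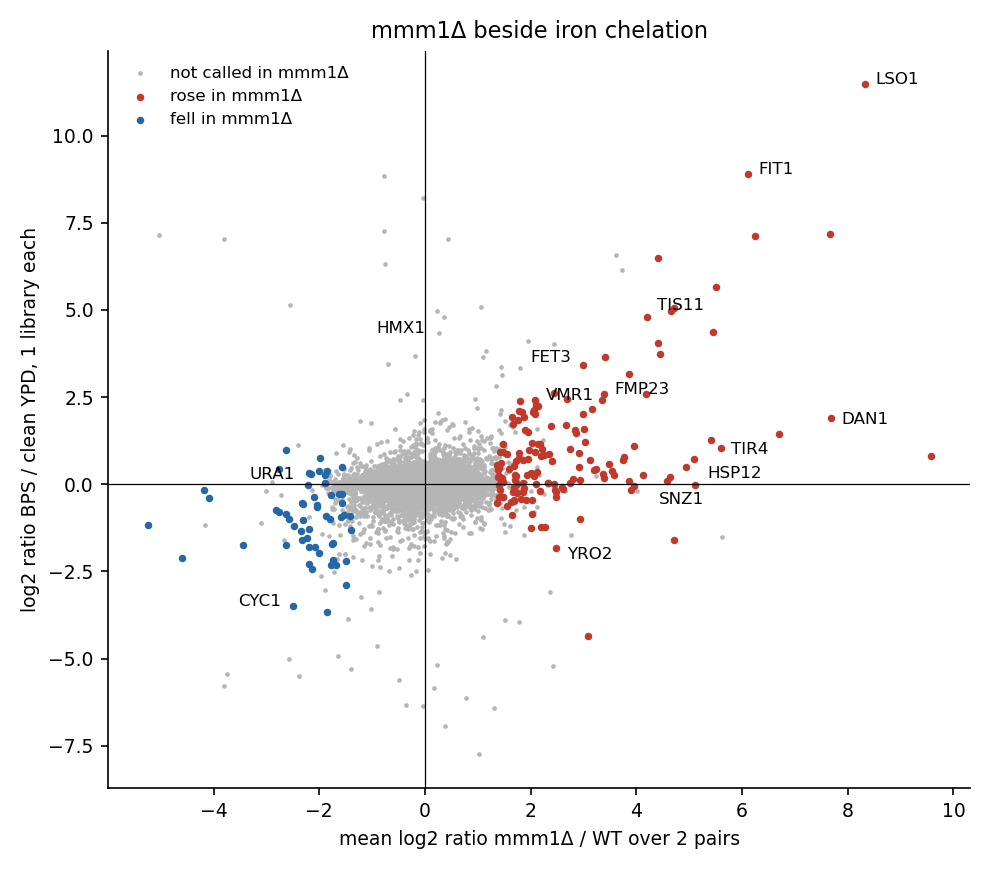
Mean log2 ratio of mmm1Δ over WT in 2 pairs (x axis) against the log2 ratio of BPS over clean YPD with 1 library each (y axis), for genes measured in both; red points rose and blue points fell in mmm1Δ. LSO1 and FIT1 are high on both axes, SNZ1, HSP12 and URA1 lie near 0 on the y axis, HMX1 is high with BPS alone, and YRO2 has opposite signs.

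Most iron genes were above 0 on both measures. All 7 siderophore genes were above 0 in both pairs and at least 2-fold higher with BPS. Of the 9 reductive genes 7 were above 0 in both pairs and 1 below, and 7 were at least 2-fold higher with BPS. Of the 14 release and sparing genes 12 were above 0 in both pairs and 1 below, and 12 were at least 2-fold higher with BPS. FIT1 went from 6.47 to 3600.0 FPKM with BPS, FIT3 from 356 to 51534, and FET3 had a BPS ratio of 3.34 beside 1.80 in mmm1Δ. Genes outside the iron lists that were past 2-fold upward in both include the anaerobic wall genes TIR1, TIR3, TIR4 and DAN1, the sterol carrier HES1, the biotin precursor transporter BIO5 and the isocitrate dehydrogenase subunit IDH1. PBI1, a gene of unclear role outside every list, rose from 1.32 to 38.1 FPKM in pair 1 and from 4.20 to 138 in pair 2 (mean ratio 4.41), and its BPS ratio was 4.05. Several other rises had BPS ratios near 0: SNZ1 (0.09), HUG1 (0.22), PDR5 (-0.13), HSP12 (-0.01), ARG1 (0.49) and ANB1 (0.19). YRO2 and YGP1 went opposite ways, up in mmm1Δ by 2.48 and 2.93 and at -1.84 and -1.01 with BPS. Among falls, CYC1, COX4, QCR2, SDH1, BIO2 and PHO5 were at least 2-fold lower on both measures, while YHB1 (-0.38), URA1 (-0.02) and ARO10 (-0.28) were near 0 with BPS.

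The respiratory chain, which passes electrons to oxygen through iron-sulfur and heme proteins, was lower in mmm1Δ for most genes of its complexes tested, and fewer of them passed. CYC1, the main cytochrome c, was at 459.9 FPKM in WT and 83.3 in mmm1Δ in pair 1 and 426 and 71.5 in pair 2 (mean ratio -2.50, SE 0.38, limma adjusted p 0.0084). The list for cytochrome c and its maturation did not move with it: 1 of 5 fell, 2 were above 0 in both pairs and 2 below, with a median of 0.39. Of the bc1 complex 4 of 9 genes fell and all 9 were below 0 in both pairs, with a median ratio of -1.51: QCR10 (-2.19), the core protein QCR2 (-2.13), QCR7 (-2.01) and the Rieske iron-sulfur protein RIP1 (-1.68). QCR2 was at 95.2 FPKM in WT and 18.0 in mmm1Δ in pair 1 and 219 and 56.9 in pair 2. Of cytochrome c oxidase 4 of 10 fell and 9 were below 0 in both pairs (median -1.38), namely COX5A (-2.24), COX4 (-2.19), COX6 (-1.76) and the short gene COX26, which was listed at 0 in mmm1Δ replicate 1. COX5A fell from 433 to 78.8 FPKM in pair 1 and from 618 to 150.2 in pair 2. Of the succinate dehydrogenase list 2 of 7 fell, 4 were below 0 in both pairs and 1 above, with a median of -1.39; 1 fell with the trend removed and 4 of 6 in the fit on longer genes. The flavoprotein gene SDH1 fell from 30.0 to 8.52 FPKM in pair 1 and from 81.3 to 21.6 in pair 2. The iron-sulfur subunit gene SDH2 fell from 27.6 to 9.39 FPKM in pair 1 and from 268 to 92.0 in pair 2. Both mmm1Δ libraries lay below both WT libraries for SDH1, whereas for SDH2 mmm1Δ replicate 2 was above WT replicate 1. Median FPKM over all genes was higher in pair 2 than in pair 1, so the genotypes are compared only within a pair. The single-subunit NADH dehydrogenase of the inner membrane, NDI1, fell from 20.2 to 6.76 FPKM in pair 1 and from 107 to 35.9 in pair 2 (mean ratio -1.50). Of the 5 genes tested in the NADH dehydrogenase list 1 fell, 4 were below 0 in both pairs and 1 above, with a median of -0.35.

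Not all of respiration moved this way. ATP synthase, which holds neither heme nor clusters, had no call among 17 genes, with 12 below 0 in both pairs and a median ratio of -0.58 that came to -0.06 with the trend removed. Proteins that assemble cytochrome c oxidase had no call among 21 and a median of 0.38, with COX17, a copper chaperone, at 1.40 and PET117 at 1.25. The mitochondrial ribosome had no call among 67, with 52 above 0 in both pairs against 2 below and a median of 0.51. Mitochondrial translation and RNA genes had no call among 30, with 26 above 0 in both pairs, a median of 0.56 and MRS2, a magnesium channel grouped with them for its part in intron splicing, highest at 1.34. In the fit on longer genes alone at their locus 0 of 8 ATP synthase genes were called, and 3 of 14 assembly, 3 of 56 ribosome and 8 of 28 translation and RNA genes rose. Over all genes tested 2025 of 6029 were above 0 in both pairs and 1794 below. With the trend removed the medians were -1.52 for bc1, -0.77 for cytochrome c oxidase and 0.60 for the mitochondrial ribosome; there no bc1 or oxidase gene was called, while in the fit on longer genes alone at their locus with the trend removed 4 of 6 bc1 genes fell, and of 5 oxidase genes 3 fell and COX5B, an alternative form of Cox5 made when oxygen is low, rose.

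CCAAT, the word bound by the respiratory activator Hap2/3/4/5, stood in 77.8% of bc1, 90.0% of oxidase and 88.2% of ATP synthase promoters, against 43.4% of all, 37.2% of risen and 45.0% of fallen promoters. Around the chain, IDH1 of the citrate cycle rose by 2.13 and CIT2, the peroxisomal citrate synthase that reports the retrograde signal from mitochondria to nucleus, by 2.25, the only calls among 11 retrograde targets. IDH2, the partner of IDH1, was at 1.51 (adjusted p 0.164 in limma). GTCAC, the word of the retrograde factors Rtg1 and Rtg3, stood in 19 of 40 fallen promoters (47.5%), against 26.1% of all and 23.6% of risen. It stood in 66.7% of bc1 promoters and 36.4% of those of the retrograde targets. What lies behind these shares was not tested. The iron-sulfur enzymes of branched-chain amino acids did not pass: ILV3 was at 1775 FPKM in WT and 311 in mmm1Δ in pair 1 and 517 and 194 in pair 2 (limma adjusted p 0.0585) and LEU1 had a mean ratio of -1.46. In that list no gene of 11 was called and 8 were below 0 in both pairs, with a median of -0.89, or -0.20 with the trend removed; 4 of 9 fell in the fit on longer genes alone at their locus, and 4 fell and 1 rose there with the trend removed.

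**Figure D5:**
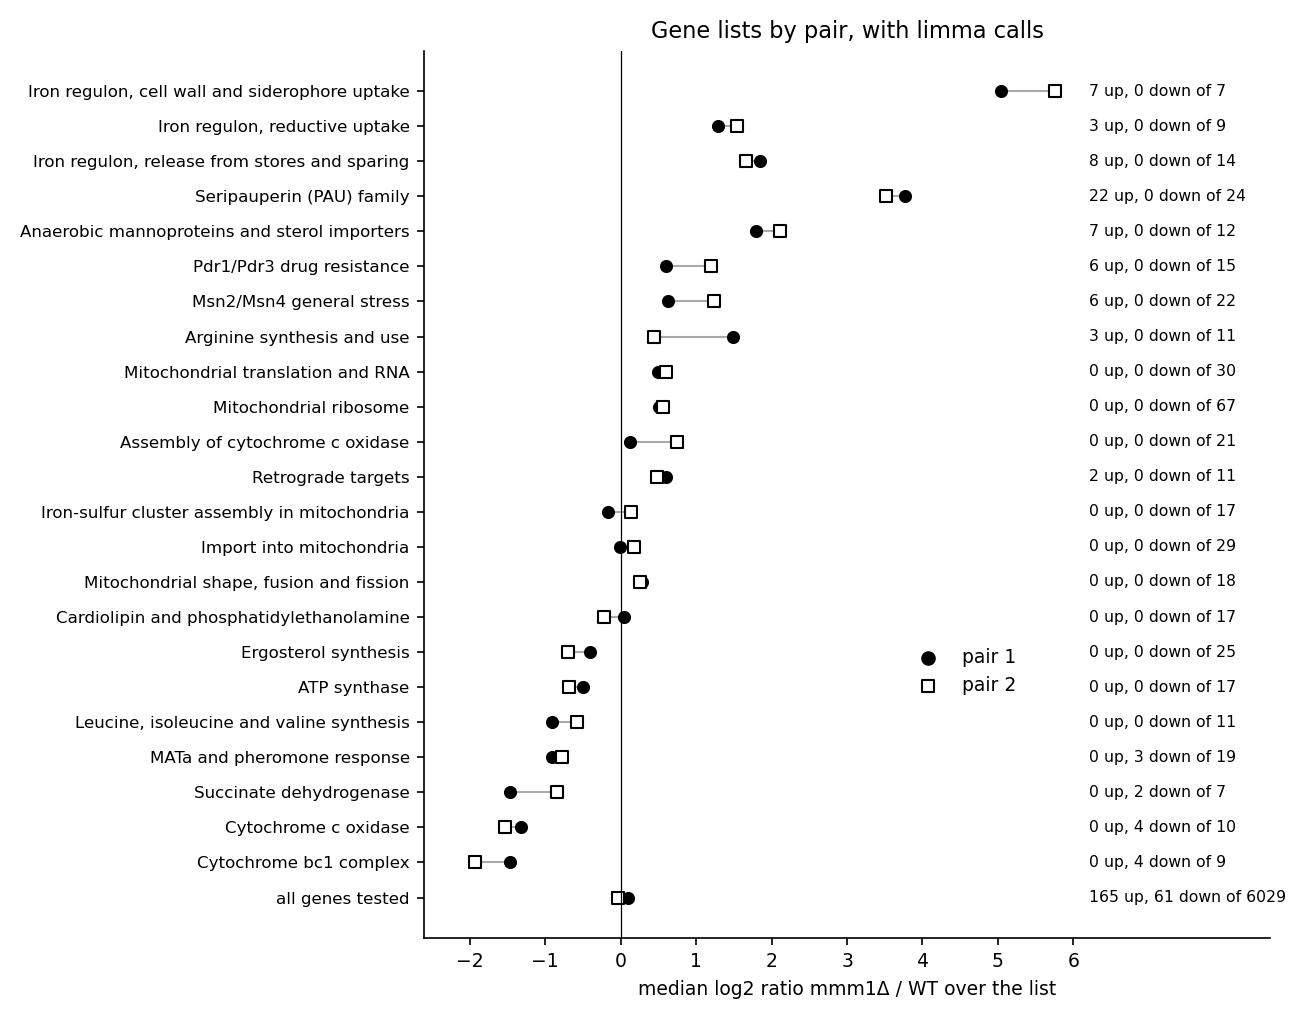
Median log2 ratio of mmm1Δ over WT in pair 1 (filled circles) and pair 2 (open squares) for the gene lists named on the y axis, with the number of members that rose and fell at the right. The iron lists, the PAU list and the list of anaerobic mannoproteins and sterol importers lie to the right of 0 in both pairs. The bc1, oxidase and succinate dehydrogenase lists lie to the left, and all genes tested at 0.10 and -0.03.

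Genes for the cell wall and sterol uptake of anaerobic growth formed another large group of rises. In air, budding yeast makes heme and sterols and keeps these genes off; without oxygen it coats the wall with Dan and Tir mannoproteins and takes up sterol from outside. Of the 12 mannoprotein and sterol import genes 7 rose, with a median ratio of 1.96. DAN1 (chromosome X, 708811 to 709707) was at 2.36 FPKM in WT and 489 in mmm1Δ in pair 1 and 1.78 and 809 in pair 2 (mean ratio 7.69, SE 0.36, limma adjusted p 2.77e-05). TIR4 rose from 9.31 to 458 FPKM in pair 1 and from 8.32 to 493 in pair 2 (mean ratio 5.60, adjusted p 6.4e-05). TIR3, TIR1 and DAN4 rose by 3.01, 2.06 and 1.85. The sterol importer AUS1 rose from 2.05 to 27.1 FPKM in pair 1 and from 6.10 to 104 in pair 2. HES1, which encodes an oxysterol-binding protein, rose from 0.944 to 22.1 FPKM in pair 1 and from 3.36 to 76.8 in pair 2. The other importer gene, PDR11, had a ratio of 1.01 and did not pass. In DAN1, TIR4, AUS1 and HES1 every mmm1Δ library was above both WT libraries, which was not counted over all genes tested.

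The seripauperins (PAU genes), a family of near-identical wall proteins also induced without oxygen, had 22 of 24 members called as rises with a median ratio of 3.71; reads can be split among its copies, so members are not separate evidence and their values are uncertain. PAU5, on chromosome VI, rose from 0.898 to 362 FPKM in pair 1 and from 7.46 to 471 in pair 2, and PAU13, on chromosome VIII, from 0.931 to 46.4 FPKM in pair 1 and from 3.87 to 46.8 in pair 2. PAU23 and PAU7 were not called, and PAU7 had ratios of -0.38 and 1.72. ANB1, the form of the translation factor eIF5A made without oxygen, was at 89.6 FPKM in WT and 583 in mmm1Δ in pair 1 and 69.0 and 1176 in pair 2 (mean ratio 3.38, limma adjusted p 0.00448). It lies next to CYC1 on chromosome X, with 953 bases between ANB1 (chromosome X, 524908 to 525381) and CYC1 (chromosome X, 526335 to 526664), and the 2 neighbours changed in opposite directions. AAC3, the ADP/ATP carrier of anaerobic cells, rose by 1.47, whereas HEM13 (-0.81), the repressor gene ROX1 (-0.64) and CYC7, the minor cytochrome c (-0.30), which also respond to oxygen or heme, did not pass. The separate list of anaerobic enzymes moved little as a whole. Of its 12 genes tested 2 rose, 6 were above 0 in both pairs and 4 below, with a median ratio of 0.21. Words of Upc2 (TCGTATA) and Rox1 (ATTGTT) stood in 5.41% and 39.9% of risen promoters against 4.28% and 35.2% of all.

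Drug and lipid transporters under Pdr1 and Pdr3 rose as well, 6 of 15 tested with a median ratio of 1.01. CIS1 (YLR346C) was at 28.2 FPKM in WT and 751 in mmm1Δ in pair 1 and 18.8 and 725 in pair 2 (mean ratio 4.94, SE 0.37, limma adjusted p 0.000187); in budding yeast Cis1 is known to recruit the ATPase Msp1 to mitochondria when protein import is blocked, in a response that runs through Pdr3. PDR5, the main drug efflux pump, rose from 53.0 to 276 FPKM in pair 1 and from 132 to 978 in pair 2 (mean ratio 2.62). PDR3 itself rose by 1.40, the pump SNQ2 by 1.36, RSB1, which moves long-chain sphingoid bases across the plasma membrane, by 2.81, and its relative RTA1 by 2.20. The 29 import genes had no call and a median of 0.05, and MSP1 had a ratio of 0.67. Pdr words (TCCGCGGA) stood in 0.200% of all promoters and in 1 of the 148 of risen genes, that of PDR3. Further rises with lipid or transport roles, outside that list and chosen after their values were seen, were YSR3, a phosphatase of dihydrosphingosine phosphate (2.03), the eisosome protein FHN1 (2.45) and the predicted transporter YHK8 (2.74).

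Genes for the lipids that ERMES is known to move, and for the contact itself, showed few calls. No gene was called among 17 for cardiolipin and phosphatidylethanolamine (median ratio -0.09), 16 for phosphatidylcholine and inositol (-0.38), 25 for ergosterol (-0.43, with 17 below 0 in both pairs) or 10 for fatty acids (-0.57). In the fit on longer genes alone at their locus 1 of 16, 2 of 15, 6 of 23 and 2 of 9 of these fell. The most extreme were EPT1 at -1.07, the mitochondrial decarboxylase PSD1 at -0.84, ITR1 at -1.25, PIS1 at -1.06, ERG10 at -1.68 and CYB5 at -1.61. In the contact site list MMM1 was the only call of 21, and the other ERMES genes MDM10, MDM12 and MDM34 had mean ratios of 0.35, 0.19 and 0.48. Mitochondrial shape (18), the inner membrane organising system (6), mitochondrial DNA upkeep (12) and coenzyme Q synthesis (11) had no call either, and in the fit on longer genes only 1 rise and 1 fall among 15 of mitochondrial shape.

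Rises in amino acid, vitamin and nucleotide pathways sat on single steps. Of 11 arginine genes 3 rose, with a median ratio of 0.85. ARG3, ornithine carbamoyltransferase, rose from 5.11 to 137 FPKM in pair 1 and from 2.43 to 27.0 in pair 2 (mean ratio 3.77). ARG1, argininosuccinate synthetase, rose from 41.8 to 371 FPKM in pair 1 and from 45.6 to 304 in pair 2 (mean ratio 2.91). ARG5,6, which encodes an early mitochondrial step, also rose. The arginine promoters carried the Gcn4 word TGACTC in 54.5% of cases, against 8.08% of all and 10.8% of risen promoters. Of the 3 that rose, ARG5,6 has the word in its window and ARG1 and ARG3 do not. The word also stood in 72.7% of one-carbon and glycine and 58.3% of purine promoters, lists without a call. SNZ1 and SNO1, the vitamin B6 synthase pair, are divergent neighbours 448 bases apart on chromosome XIII. SNZ1 rose from 5.59 to 287 FPKM in pair 1 and from 20.2 to 274 in pair 2 (mean ratio 4.57, limma adjusted p 0.000667). SNO1 rose from 2.21 to 74.6 FPKM in pair 1 and from 8.90 to 75.7 in pair 2 (mean ratio 3.76).

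Biotin genes divided by role. BIO5, the transporter of biotin precursors, rose from 2.30 to 32.1 FPKM in pair 1 and from 6.57 to 46.7 in pair 2 (mean ratio 2.99), beside the permease VHT1. VHR1, the activator of both genes, rose by 1.40 and was picked out after its values were seen. BIO2, the iron-sulfur enzyme of the last step of synthesis, fell from 55.1 to 21.2 FPKM in pair 1 and from 109 to 23.5 in pair 2 (mean ratio -1.75). Of the 6 biotin genes 2 rose and 1 fell.

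Among genes of ribonucleotide reductase, an iron enzyme that makes DNA precursors, the inhibitor and the damage-induced subunit rose and the others did not. HUG1, a small inhibitor, rose from 179 to 3604 FPKM in pair 1 and from 231 to 7151 in pair 2 (mean ratio 4.63, SE 0.47, limma adjusted p 0.000885). RNR3, the inducible large subunit, was at 1.97 FPKM in WT and 17.9 in mmm1Δ in pair 1 and 3.64 and 35.7 in pair 2 (mean ratio 2.83, adjusted p 0.0013). The housekeeping subunits RNR1, RNR2 and RNR4 had mean ratios of -0.22, -0.29 and -0.20, and the inhibitor SML1 -1.81 without passing (limma adjusted p 0.12). URA1, dihydroorotate dehydrogenase of pyrimidine synthesis, fell from 294 to 73.3 FPKM in pair 1 and from 1601 to 294 in pair 2 (mean ratio -2.22).

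Stress genes rose in part and with unequal size in the pairs. Of 22 Msn2/Msn4 genes 6 rose and 17 were above 0 in both pairs, with a median of 0.97. HSP12, a membrane-bound stress protein, rose from 11.6 to 1974 FPKM in pair 1 and from 44.5 to 349 in pair 2, ratios of 7.29 and 2.95. The small heat shock protein HSP26 rose from 31.0 to 301 FPKM in pair 1 and from 25.2 to 838 in pair 2 (mean ratio 4.12), the only call among 20 heat shock genes. SIP18, YGP1, XBP1 and GRE1 rose by 3.34, 2.93, 1.45 and 1.42. The Msn2/Msn4 word AGGGG stood in 22.3% of risen and 21.9% of all promoters. Among 20 genes of defence against peroxide and electrophiles 1 rose and 1 fell, with 10 below 0 in both pairs against 4 above and a median of -0.49; in the fit on longer genes 2 rose and 7 fell. GTT2, a mitochondrial glutathione transferase, rose by 2.49, and the flavohemoglobin YHB1 fell from 164 to 38.8 FPKM in pair 1 and from 901 to 201 in pair 2 (mean ratio -2.10).

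Turnover and carbon genes rose singly. ATG32, the receptor that marks mitochondria for autophagy, rose from 3.32 to 22.1 FPKM in pair 1 and from 12.1 to 36.8 in pair 2 (mean ratio 1.97), and ATG40, a receptor for autophagy of the ER that was singled out after its values were seen, rose by 1.67 beside its neighbour PDR5. UBI4, the polyubiquitin gene, rose by 1.86, GTT1 and TSA2, a glutathione transferase and a peroxiredoxin, by 2.13 and 2.34, and the glucan synthase GSC2 by 2.10. None of 12 core autophagy genes was called (median 0.30), and 1 of 11 rose in the fit on longer genes. PCK1, the gluconeogenic carboxykinase, rose from 1.95 to 16.5 FPKM in pair 1 and from 8.10 to 37.7 in pair 2 (mean ratio 2.33), the only call of 9 glyoxylate and gluconeogenesis genes. VID24 (2.49), GID10 (1.60) and UBC8 (1.36), receptors and the conjugating enzyme of the GID ubiquitin ligase that degrades gluconeogenic enzymes, rose too and were likewise picked out afterwards. PDC6, a minor pyruvate decarboxylase, rose by 1.92, the only call of 26 glycolysis and fermentation genes, whose median of -0.80 turned to 0.35 with the trend removed.

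Falls also reached mating, phosphate and wall genes. Of 19 mating type a and pheromone genes 3 fell and 16 were below 0 in both pairs, with a median of -0.77. The agglutinin subunit AGA2 was at 2263 FPKM in WT and 299 in mmm1Δ in pair 1 and 2065 and 625 in pair 2 (mean ratio -2.32), its anchor AGA1 at -1.39 and ASG7 at -1.87, and with the trend removed none of the 19 was called. STE3, the receptor of the opposite mating type, was at 0.491 FPKM in WT and 2.87 in mmm1Δ in pair 1 and 4.89 and 17.2 in pair 2. That type's pheromone gene MF(ALPHA)1 was at no more than 1.26 in any library. Its other pheromone gene, MF(ALPHA)2, was at 16.8 in WT and 6.10 in mmm1Δ in pair 1 and 17.0 and 22.1 in pair 2. SAG1, an agglutinin gene of that type, was at 7.13 and 7.31 in pair 1 and 22.0 and 20.1 in pair 2. None of the 3 of these genes tested was called, and their part in the falls was not tested. PHO5, the secreted acid phosphatase, fell from 244 to 51.9 FPKM in pair 1 and from 532 to 95.0 in pair 2 (mean ratio -2.34, limma adjusted p 0.011), whereas PHM8 of the same phosphate list rose by 2.18. The wall glucanase SCW10 fell (mean ratio -2.32), as did the filamentation factor TEC1 (-1.58). NFG1, a negative regulator of filamentous growth, was at a mean ratio of -2.49, the mannose phosphate isomerase PMI40 at -1.74 and the exonuclease MYG1 at -1.86, and these also fell. YGL088W, an uncharacterised gene, fell from 156 to 40.5 FPKM in pair 1 and from 159.5 to 28.1 in pair 2. The first 2 enzymes of aromatic amino acid breakdown fell together, ARO9 by 1.79 and ARO10 by 1.62.

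The pairs disagreed on a small set. Past 2-fold, 30 genes were higher in pair 1 and lower in pair 2 and 32 the reverse, but among genes no shorter than 300 nt that share no locus and are above 0 throughout, these were 2 and 3. HSP30, a plasma membrane stress protein, was at 22.4 FPKM in WT and 8.93 in mmm1Δ in pair 1 and 293 and 2200.1 in pair 2. The phosphate symporter PHO89 was at 19.5 FPKM in WT and 50.7 in mmm1Δ in pair 1 and 141 and 60.2 in pair 2. The others were CIP1 (ratios -1.41 and 1.54), YOL131W (-1.31 and 2.08) and YBR032W (1.16 and -1.97). HSP30 and PHO89 were higher in both libraries of pair 2 than in either of pair 1, and none of the 5 was called.

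Some genes that rose lay side by side. Of 148 risen genes with an annotated position 33 (22.3%) had a risen gene as direct neighbour, in 18 adjacent pairs. Of all 5509 tested genes with a position 246 (4.47%) had a risen neighbour. None of the 40 fallen genes had a fallen neighbour, and of the 5509 only 73 (1.33%) did, so the 0 of 40 shows no difference from all genes. In 4 adjacent pairs the genes went opposite ways, ANB1 with CYC1 and YLL006W-A with MMM1 among them. Besides the iron pair FIT2 with FIT3, the B6 pair and ZTA1 with FMP23, described above, the pairs include DAN1 with DAN4, VHT1 with GID10, ATG40 with PDR5 and YPL278C with YPL277C, the last 49 bases apart. Where reads of overlapping or adjoining transcripts were counted for both genes, the 2 values are not separate measurements, and how far this holds was not tested.

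Lists not yet named gave little. No gene was called among the proteasome (32), ribosome biogenesis (32), RNA polymerases I and III (19), ER protein folding (16), sulfate assimilation and methionine (21), purine synthesis (12), trehalose and glycogen (17), hexose transporters (9 of 19 measured), nitrogen catabolite genes (18), zinc and copper (13), the vacuole (19) or histones (10). In the fit on longer genes alone at their locus 4 of 16 nitrogen catabolite, 2 of 15 trehalose and glycogen and 1 of 9 zinc and copper genes rose, 3 of 19 sulfate and methionine and 1 of 12 purine genes fell, and the other lists named here had no call. Histones had a median of -0.66 with 9 of 10 below 0 in both pairs, which turned to 0.38 with the trend removed.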

How the data were processed

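Messenger RNA was sequenced. Per the file headers, the authors deposited 3 tables of FPKM values with 6660 genes each. The submitters' processing notes name build sacCer3, TopHat2 2.0.8 and Cuffdiff 2.0.2, without settings. Read counts are not given, so depth and counting error are unknown, and overlapping genes are uncertain.

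Values were analysed as log2(FPKM + 1), which understates changes of low genes, for 6029 genes with a mean of at least 5, using limma 3.58.1 (R 4.3.3; trend on, two-sided, Benjamini-Hochberg) with the replicate number as a block. The number is the table, and same-numbered deviations correlated at 0.616, so the numbers pair the samples. Residual degrees of freedom were 1 and prior ones 7.59, and the fit was tested on simulated data. Pandas 2.3.3 handled tables. Of the gene identifiers 5986 matched R64.

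Members and gene lists were chosen with earlier results of these data known. Named genes were the most changed called genes, up to 6 called members of each list (or the 2 most extreme), MMM1's neighbours, genes opposite in the pairs and pathway partners. The label of WT replicate 2 names another table than the column that carries its name; the column was used. Alternatives are given in the closing section.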

Additional observations from a re-analysis of the deposited data

How the results depend on the processing

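Direction held for every called gene named in the text, under every alternative in which it was tested. The number of genes that rose, 165, came to 248 with a pseudocount of 0.1, 285 with a mean of 5 FPKM in each pair, 362 among longer genes alone at their locus, 79 with the trend with abundance removed and 323 with both of the last, a choice made after seeing the data. Genes that fell, 61, came to 124, 194, 176, 7 and 142 in that order, to 26 with a pseudocount of 5 and to 175 with a mean of 20. With no replicate block, which leaves the tables unpaired, each library was also centred on its own median. There 0 rose and 0 fell by limma, with 256 unadjusted p under 0.05 against 1143 in the paired fit. Genes 2-fold lower in both pairs, 224, came to 115 with the trend removed, 138 among longer genes and 61 with both. Leaving out a replicate leaves 1 pair and no test, with 504 to 514 genes 2-fold higher and 407 to 806 lower. Prior degrees of freedom, 7.59, came to 12.8 with a pseudocount of 0.1 and 5.47 with 5, 47.9 with a mean of 5 in each pair, 3.49 with the trend removed, 12.4 among longer genes with the trend removed, and infinite among longer genes or with a mean of 20, where a gene's own spread does not enter; the cause of the moves was not tested otherwise. Signs turned in uncalled genes. CIP1 came to -0.025 with the trend removed, -0.095 with no block and -0.02 among longer genes with the trend removed. PHO89 came to -0.104 with no block. Leaving out the block does not change a mean ratio here, so the no-block values moved with the centring of the libraries. RNR2 came to 0.177 with the trend removed. RNR4 came to 0.406 with the trend removed and 0.428 among longer genes with the trend removed. Depth, which is unknown, limits genes near 0.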
